A study of Mus musculus with 2 samples.

Results

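The genes described here encode mitochondrial ribosomal proteins. They were chosen by name: protein-coding genes of the mouse annotation GENCODE vM21 on chromosomes 1 to 19 and X whose symbol starts with Mrpl or Mrps followed by a number. The rule found 78 genes among 21755 protein-coding genes of these chromosomes, 49 of them Mrpl and 29 Mrps. They lay on 17 chromosomes, with 11 on chromosome 11 and 8 on chromosome 17. The assay was DNase-seq on newborn mouse heart (strain B6NCrl, postnatal day 0), in which the enzyme DNase I cuts open chromatin more readily than closed chromatin and sequencing reads out the cuts. There was 1 group of 2 libraries, biological replicates 1 and 2, labelled with 1 donor but as separate biosamples, and sex was not collected. No treatment, second age or second tissue is labelled, so the values are a description of 1 tissue at 1 age with no test between groups, and an SD measures only how far these samples spread, part or all of which may be technical.

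Mitochondria keep a ribosome of their own, which translates the few proteins encoded in mitochondrial DNA, core subunits of the respiratory chain and of ATP synthase. Its RNAs come from the mitochondrial genome, but every one of its proteins is encoded in the nucleus, translated in the cytosol and imported. Some of these proteins descend from bacterial ribosomal proteins, and others are found in mitochondrial ribosomes only. Heart muscle depends on oxidative phosphorylation, and mutations in several of these genes cause cardiomyopathy in people. NRF1 and the ETS factor GABP (also called NRF2) are known regulators of nuclear genes for mitochondrial proteins, and YY1 is another.

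For each library the authors deposited peaks, 150 bp regions with 1 value each, and hotspots, wider regions of raised cleavage with a −log10 q-value. The peak value is a signal with no unit or normalization stated. Its range was 2 to 145 for replicate 1 and 1 to 148 for replicate 2, and it is compared here within a library or side by side. A promoter peak is one whose centre lay within 500 bp of any annotated transcription start site (TSS) of the gene, and the highest was taken where there were several. The libraries had 164657 and 144708 peaks on the chromosomes used (1 to 19, X and Y), in the order replicate 1 and replicate 2, which all pairs of values below keep. Sequencing depth is unknown. Cardiomyocyte markers had promoter peaks in both libraries at 7 of 7 genes (Myh6, Actc1, Tnnt2, Tnni3, Ttn, Nkx2-5 and Atp2a2), with values from 97 to 115. Promoters of markers of endothelial cells (Cdh5, 58 and 66) and of fibroblasts (Tcf21, 48 and 51, and Col1a1, 48 and 50) had peaks too, and no peak was listed at Hbb-bs, Gata1, Ptprc, Alb or Myod1. Neurod1, a neuronal marker, had a peak of 16 in replicate 2 only. Markers of several cell types thus had peaks, and in bulk tissue a site open in few cells cannot be told apart from one weakly open in many.

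Promoters of the family carry different short motifs inside their open stretch, and a few are shown first because the results below refer to them. Each line gives the longest stretch free of annotated exons within the span of the gene's highest promoter peaks of both libraries, in build mm10, read 5′ to 3′ on the strand of the gene. Capitals mark exact matches, on either strand, of the NRF1, ETS, YY1, SP/KLF, CRE, E-box and BANP motifs, and other motifs searched are left in lower case here. The first 3 hold the NRF1 motif GCGCATGCG, and the first of these also holds the ETS motif CCGGAAG.
Mrpl22, chr11:58171516-58171660, plus strand: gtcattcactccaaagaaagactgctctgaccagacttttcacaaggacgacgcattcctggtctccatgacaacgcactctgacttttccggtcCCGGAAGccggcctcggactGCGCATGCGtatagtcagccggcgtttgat
Mrpl10, chr11:97041416-97041559, plus strand: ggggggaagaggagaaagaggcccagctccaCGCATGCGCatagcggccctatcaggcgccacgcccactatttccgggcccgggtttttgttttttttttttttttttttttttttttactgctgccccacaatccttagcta
Mrpl9, chr3:94443236-94443317, plus strand: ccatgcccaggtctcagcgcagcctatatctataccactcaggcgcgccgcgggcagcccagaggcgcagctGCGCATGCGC

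The next 6 hold the ETS motif, which reads CTTCCGG where it lies on the other strand.
Mrps22, chr9:98601661-98601785, minus strand: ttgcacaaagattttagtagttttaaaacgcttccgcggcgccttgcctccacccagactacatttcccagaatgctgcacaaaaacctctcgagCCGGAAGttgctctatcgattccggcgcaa
Mrpl52, chr14:54426776-54426908, plus strand: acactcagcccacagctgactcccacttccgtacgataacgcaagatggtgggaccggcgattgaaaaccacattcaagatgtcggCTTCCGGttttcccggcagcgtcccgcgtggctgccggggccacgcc
Mrpl58, chr11:115403636-115403751, plus strand: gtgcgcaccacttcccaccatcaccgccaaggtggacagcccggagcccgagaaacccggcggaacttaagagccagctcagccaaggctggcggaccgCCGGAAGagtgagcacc
Mrps27, chr13:99344706-99344785, plus strand: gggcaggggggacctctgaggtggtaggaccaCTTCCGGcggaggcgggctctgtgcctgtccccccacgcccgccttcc
Mrps10, chr17:47368796-47368886, plus strand: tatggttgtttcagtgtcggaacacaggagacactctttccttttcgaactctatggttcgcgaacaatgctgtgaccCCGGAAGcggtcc
Mrps18a, chr17:46110916-46110985, plus strand: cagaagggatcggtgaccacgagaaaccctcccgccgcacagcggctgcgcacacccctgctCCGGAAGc

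The next 5 stand for other promoters. Mrps14 had 1 of the tallest peaks of the family with none of the capitalised motifs, Mrps16 holds the SP/KLF motif GGGGCGG, Mrpl16 a cAMP response element TGACGTCA, Mrpl57 the BANP motif TCTCGCGAG, and Mrpl3 had the lowest peak.
Mrps14, chr1:160195016-160195185, plus strand: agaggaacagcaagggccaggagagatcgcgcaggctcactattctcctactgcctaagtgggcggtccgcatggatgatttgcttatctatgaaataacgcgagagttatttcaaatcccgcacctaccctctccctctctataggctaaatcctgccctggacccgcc
Mrps16, chr14:20393635-20393765, minus strand: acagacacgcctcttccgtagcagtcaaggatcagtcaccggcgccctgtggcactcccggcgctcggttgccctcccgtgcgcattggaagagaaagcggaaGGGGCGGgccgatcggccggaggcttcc
Mrpl16, chr19:11770296-11770390, plus strand: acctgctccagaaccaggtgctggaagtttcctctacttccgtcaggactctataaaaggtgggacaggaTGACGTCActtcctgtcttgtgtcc
Mrpl57, chr14:57826186-57826233, plus strand: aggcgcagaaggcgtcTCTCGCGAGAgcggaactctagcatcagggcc
Mrpl3, chr9:105053176-105053238, plus strand: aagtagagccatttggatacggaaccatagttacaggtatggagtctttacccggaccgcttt

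A promoter peak was listed in both libraries at each of the 78 genes. Of all 21755 protein-coding genes, 64.2% did. A promoter hotspot in both libraries was likewise listed at 78 of 78, against 65.0% of all genes. The promoters of the family are CpG-rich: the median ratio of observed to expected CpG within 500 bp of the 5′ end was 0.72, against 0.558 for all genes, and 70 of 78 exceeded the median of all genes. When all genes were weighted to the family's CpG content, by deciles of this ratio, 88.5% had such a peak in each library. Among 92 genes for proteins of the cytosolic ribosome, 83 did (90.2%). No test stands behind these differences, since the series has 1 group. At the 5′ end of the gene record alone, leaving out alternative start sites, 73 of 78 genes of the family (93.6%) had a peak in each library, against 58.1% of all genes.

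The hotspot at the promoter carried the top −log10 q of the lists, 100, in both libraries at 77 of 78 genes, against 50.9% of all genes. The exception was Mrpl58, also called ICT1, a peptidyl-tRNA hydrolase of the large subunit that rescues stalled ribosomes. Its promoter hotspot had a −log10 q of 3.62 in replicate 1 and 5.40 in replicate 2, with widths of 222 and 498 bp. Its peak values, 75 and 68, were nonetheless above those of several genes whose hotspot was at the top.

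The median promoter peak value of the family was 95 in replicate 1 and 89.5 in replicate 2, which gives 92.2 ± 3.89 (SD, n = 2). The median of all genes with a peak was 88 and 84. The middle of the family lay at percentiles 59.9 and 57.6 of all genes with a promoter peak in each library. Means weighted to the family's CpG content were 86.5 and 82.8 for all genes, beside 94.1 and 89.8 for the family. Cytosolic ribosomal protein genes had medians of 102 and 100. Presence of a peak was thus uniform across the family, while its height varied, from 46 to 133 in replicate 1 and 53 to 126 in replicate 2. Promoter peaks of all genes ranged from 4 to 145 and from 4 to 148. Low peaks were rare in the family: 3 and 1 of its 78 genes lay in the lowest 25% of all genes' promoter peaks.

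**Figure D1:**
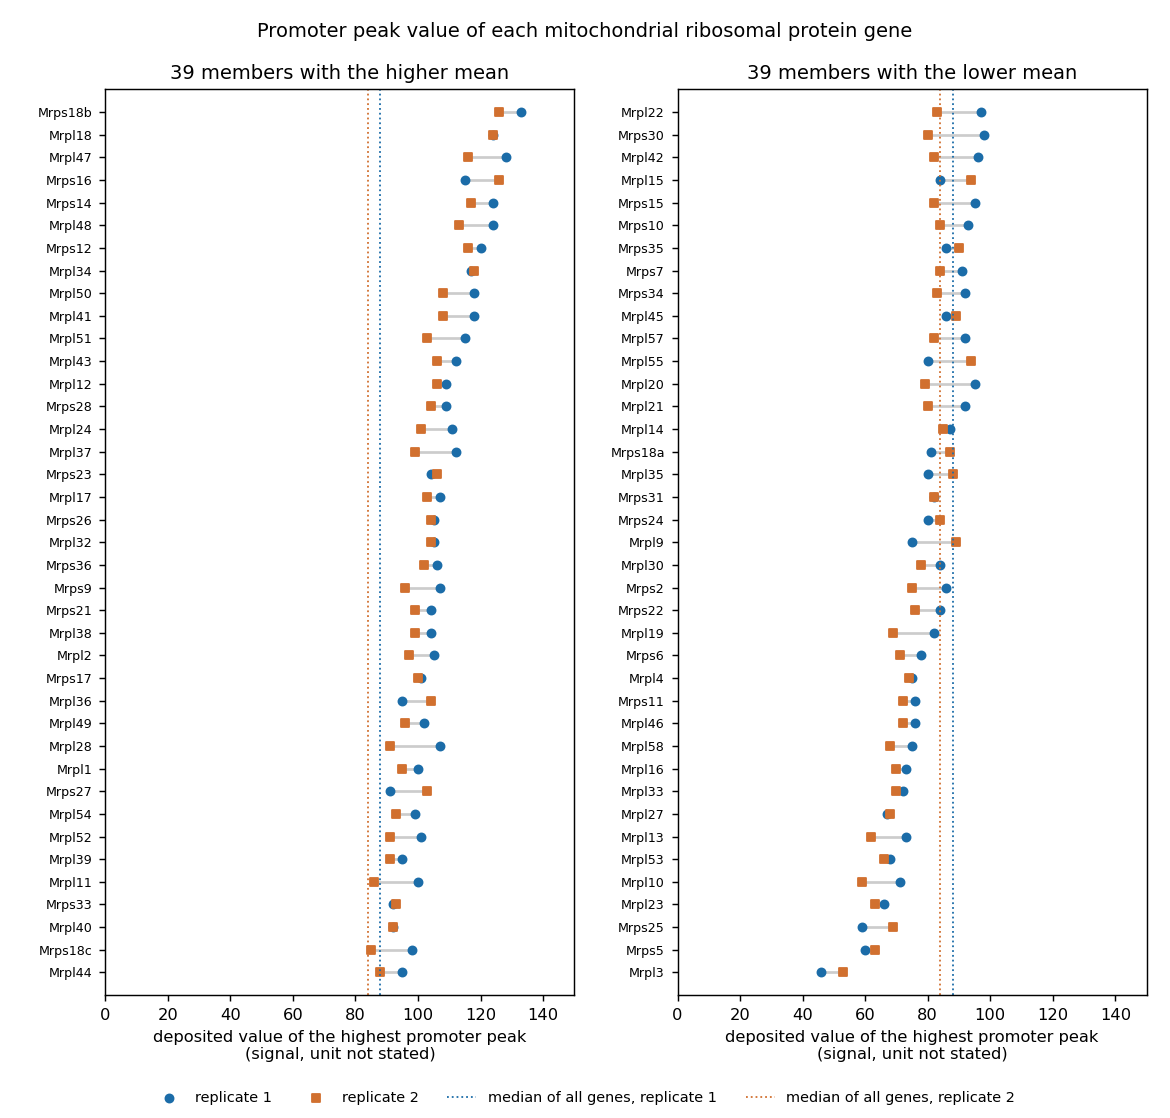
Deposited value of the highest promoter peak (x axis, signal with no stated unit) of each of the 78 genes (y axis, sorted by the mean of both libraries), circles for replicate 1 and squares for replicate 2, with dotted lines at the medians of all protein-coding genes with a promoter peak (88 and 84). Mrps18b lies highest (133 and 126) and Mrpl3 lowest (46 and 53), and most pairs of points lie close together relative to that range.

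The 8 tallest promoter peaks by the mean of both libraries belonged to genes of both subunits. Mrps18b, which encodes 1 of 3 relatives of bacterial S18, had values of 133 and 126. Mrpl18 had 124 in both libraries, and Mrpl47 had 128 and 116. Mrps16 (115 and 126) and Mrps14 (124 and 117) followed, both small subunit proteins with a bacterial homolog. Mrpl48 had 124 and 113, Mrps12 had 120 and 116, and Mrpl34 had 117 and 118. Only part of the order among these 8 was the same in both libraries, because some of their library ranges overlap. Mrps16 was lowest of the 8 in replicate 1 and level with Mrps18b, the highest, in replicate 2.

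The 8 lowest began with Mrpl3, a core protein of the large subunit that lies near the peptidyl transferase centre and whose human counterpart is mutated in a form of cardiomyopathy. Its values were 46 and 53, at the 15.0 and 20.9 percentiles of genes with a promoter peak. Mrps5 had 60 and 63, Mrps25 had 59 and 69, and Mrpl23 had 66 and 63. Mrpl10, the stalk base protein, had 71 and 59. Mrpl53 (68 and 66), Mrpl27 (67 and 68) and Mrpl13 (73 and 62) completed the 8. In both libraries each of these 8 lay below each of the 8 tallest.

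By role, the 30 large subunit proteins with a bacterial homolog had median values of 89.5 and 87, and the 20 large subunit proteins of mitochondria only had 98.5 and 91.5. The 16 small subunit proteins with a bacterial homolog had 96.5 and 84.5, and the 9 of mitochondria only had 91 and 90. The order of these groups differed between libraries, and their ranges overlapped. Proteins named Mrps do not always sit in the small subunit: Mrps30 (98 and 80) and Mrps18a (81 and 87) are large subunit proteins, and Mrps36 (106 and 102) is now known as a component of the 2-oxoglutarate dehydrogenase complex.

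Among proteins with well known positions, the factor-binding stalk of the large subunit gave unequal promoters. Mrpl12, the stalk protein itself, had 109 and 106, Mrpl11 at the stalk base had 100 and 86, and Mrpl10 had 71 and 59, the lowest of the 3 in both libraries. Near the active site and exit tunnel, Mrpl2 had 105 and 97, Mrpl4 had 75 and 74, and Mrpl45, which anchors the ribosome to the inner membrane, had 86 and 89. Mrpl44, which like Mrpl3 is linked to cardiomyopathy, had 95 and 88, close to the median of the family and above both values of Mrpl3. In the small subunit, Mrps12 of the decoding centre had 120 and 116, Mrps7 of the head had 91 and 84, and Mrps22, a protein of mitochondria only, had 84 and 76. The S18 relatives also differed: Mrps18b at 133 and 126 was above Mrps18c (98 and 85) and Mrps18a (81 and 87) in both libraries. That order rests on a peak beside the partner gene Ppp1r10, since the peak nearest to a start site of Mrps18b had 97 and 102, below Mrps18c in replicate 1.

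Replicate 1 gave the higher value at 57 of 78 genes (73.1%), replicate 2 at 18, and 3 were equal. Among all genes with a promoter peak in both libraries, 68.3% were higher in replicate 1. The median SD between libraries was 4.95 for the family, over 78 genes with 2 values each, and 4.24 for all genes. The largest differences were at Mrps30 (98 and 80), Mrpl20 (95 and 79) and Mrpl28 (107 and 91), and a gap of 14 was found at Mrpl9 (75 and 89), Mrpl55 (80 and 94), Mrpl42 (96 and 82), Mrpl22 (97 and 83) and Mrpl11 (100 and 86). Mrpl9 and Mrpl55 were the genes of this set with the higher value in replicate 2. The highest peaks of both libraries overlapped at 73 of 78 genes (93.6%), against 92.8% of all genes. They had the same position at 38 and were 20 bp apart at 32.

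Promoter peaks sat just upstream of a start site. The centre of the highest peak lay within 100 bp of an own TSS at 67 genes in replicate 1 and 71 in replicate 2 (85.9% and 91.0%), against 70.8% and 71.4% of all genes. It lay upstream of the nearest own TSS at 61 and 60 (78.2% and 76.9%), close to the 75.3% and 75.4% of all genes. The median position was 30.5 bp upstream in replicate 1 and 31 bp upstream in replicate 2. Farthest out were Mrps18b at 441 and 421 bp upstream, Mrps28 at 408 and 428 bp downstream, Mrpl34 at 249 bp upstream in both libraries and Mrpl47 at 217 and 237 bp downstream. Mrpl23 (308 and 68 bp downstream) and Mrpl54 (254 and 4 bp downstream) were far out in replicate 1 only.

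**Figure D2:**
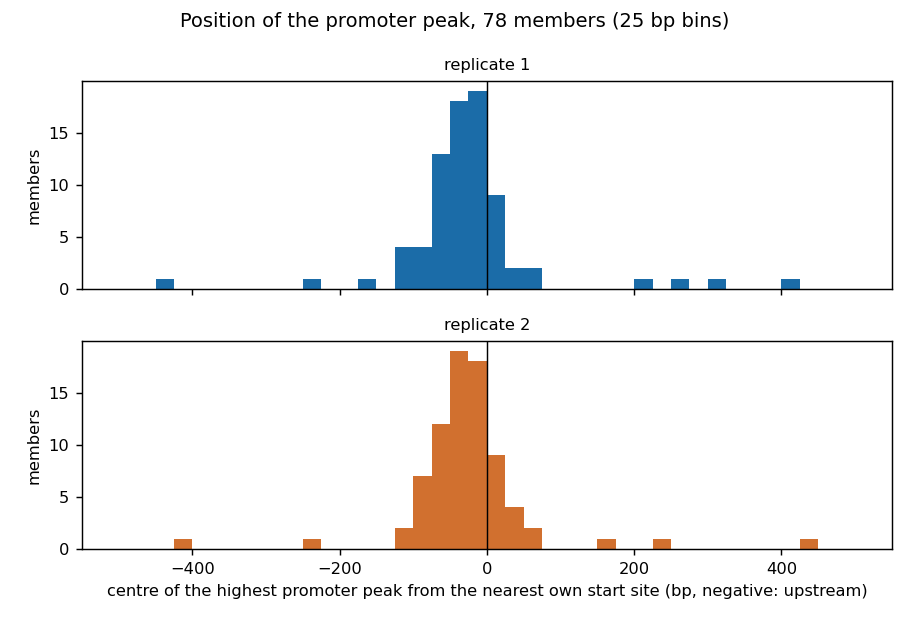
Number of genes (y axis, of 78) by the distance in bp of the centre of the highest promoter peak from the nearest TSS of the gene (x axis, negative is upstream, 25 bp bins), replicate 1 above and replicate 2 below. Most peaks lie within 100 bp of the start site, 67 genes in replicate 1 and 71 in replicate 2.

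At 4 genes the highest peak lay over 1 kb from the 5′ end of the gene record, at an alternative start site. For Mrpl33 it lay 17055 bp downstream (72 and 70), and a peak at the 5′ end was nearly as high (64 and 62). For Mrps24 it lay 7950 bp downstream (80 and 84) and for Mrpl35 3159 bp downstream (80 and 88), with no peak at the 5′ end of either record in either library. At Mrpl36 the libraries differed: the highest peak lay 2477 bp downstream in replicate 1 (95), while in replicate 2 it lay 37 bp downstream of the 5′ end (104). The peak at the 5′ end of Mrpl36 was listed at 83 in replicate 1.

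A large part of the family shares its promoter with another protein-coding gene. A TSS of another protein-coding gene lay within 500 bp of a TSS at 33 of 78 genes (42.3%), 32 of them with the partner on the opposite strand. The share was 13.3% for all genes, 19.6% for all genes weighted to the family's CpG content, and 18.5% for cytosolic ribosomal protein genes. A peak between 2 start sites cannot be assigned to either gene. Counting other genes of any type, noncoding ones included, the highest peak was nearer to their TSS at 20 genes in replicate 1 and 18 in replicate 2. The same share over all protein-coding genes was not computed. Genes that share a promoter had median values of 95 and 89, and those that do not had 95 and 90.

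Several partners also act in mitochondria. Mrps12 lies head to head with Sars2, the mitochondrial seryl-tRNA synthetase, and both claim the same peak (120 and 116). Mrpl43 (112 and 106) is paired with Twnk, the mitochondrial DNA helicase. Mrpl47 (128 and 116) and Mrpl36 (83 and 104 at its 5′ end) are paired with Ndufb5 and Ndufs6, subunits of respiratory complex I. Mrps27 (91 and 103) is paired with Ptcd2, a pentatricopeptide repeat protein of mitochondrial RNA processing. Other partners serve elsewhere in the cell. Mrpl49 (102 and 96) is paired with Fau, the precursor of a cytosolic ribosomal protein, Mrpl32 (105 and 104) with the proteasome subunit Psma2, Mrpl40 (92 in both) with the histone chaperone Hira, and Mrpl48 with the Golgi GTPase Rab6a.

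At 3 of the 5 tallest promoters with a partner the peak lay nearer to the partner in both libraries by a wide margin, and at Mrpl18 and Mrps12 it lay between both genes. For Mrps18b the peak of 133 and 126 lay 48 and 28 bp from a TSS of Ppp1r10, a regulatory subunit of protein phosphatase 1, and the peak nearest to a start site of Mrps18b itself had 97 and 102. For Mrpl18 the peak of 124 lay about midway, 59 bp from a TSS of Tcp1, a chaperonin subunit, and 68 bp from one of Mrpl18. A peak still nearer to a start site of Mrpl18 had 18 and 27. For Mrps12 it lay nearer to Sars2 in replicate 1 (82 against 90 bp) and nearer to Mrps12 in replicate 2 (70 against 102 bp). For Mrpl47 the peak lay 60 and 80 bp from Ndufb5, and the peak nearest to a start site of Mrpl47 had 128 and 28. For Mrpl48 it lay 16 and 60 bp from Rab6a, and the peak nearest to a start site of Mrpl48 had 45 and 75. Mrps14, Mrps16 and Mrpl34 were the 3 of the 8 tallest without a protein-coding partner.

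Mrpl46 and Mrps11 are paired with each other, which puts a protein of each subunit on 1 promoter. Their nearest start sites lay 30 bp apart on chromosome 7, on opposite strands, and no other pair in the family lay within 100 kb. They share 1 peak of 76 in replicate 1 and 72 in replicate 2, below the family median. The hotspot around it was 537 bp wide in replicate 1 and 799 bp in replicate 2. In replicate 2 a weaker peak of 22 was listed beside the more distant start site of Mrpl46.

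**Figure D3:**
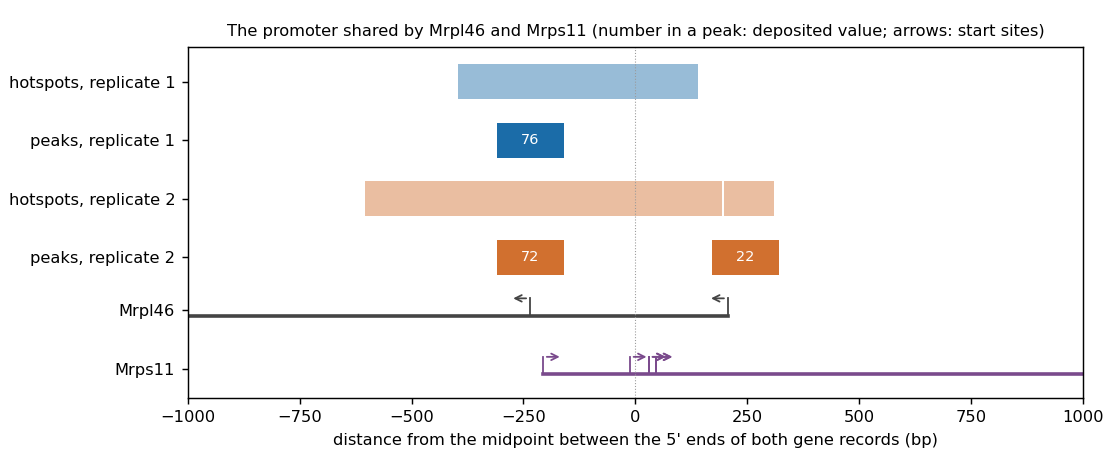
Map of the promoter shared by Mrpl46 and Mrps11, with the distance in bp from the midpoint between the 5′ ends of both gene records on the x axis; dark bars are peaks with their deposited values, pale bars hotspots, lines the genes and arrows their start sites. The shared peak (76 and 72) covers the pair of divergent start sites 30 bp apart, and replicate 2 has another peak of 22.

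Hotspots at these promoters were of ordinary width, with medians of 662.5 and 722 bp against 669 and 694 bp for all genes. The widest was at Mrpl40 (2166 and 1478 bp), followed by Mrpl48 (1860 and 968 bp), Mrpl18 (1075 and 1599 bp), Mrpl41 (1003 and 1597 bp), Mrpl50 (1287 and 1233 bp) and Mrps18b (1422 and 1066 bp). Over the family, widths did not separate by partner in replicate 1, with medians of 661 bp for the 33 genes that share a promoter and 664 bp for the 45 that do not, and were 799 and 685 bp in replicate 2. The narrowest were at Mrps24 (377 and 268 bp), Mrpl58 (222 and 498 bp) and Mrpl52 (314 and 484 bp). The width of one promoter could differ between libraries widely, as at Mrpl48.

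Motif letters were searched on both strands from 250 bp before to 50 bp after the 5′ end of each gene record. The ETS motif CCGGAAG was in 27 of 78 windows (34.6%), against 10.9% of all genes and 17.1% of all genes weighted to the family's CpG content. The YY1 motif AAGATGGC was in 10 (12.8%), against 2.93% and 4.28%, and the NRF1 motif GCGCATGCG in 5 (6.41%), against 2.17% and 3.57%. At least 1 of these 3 was in 34 windows (43.6%), against 14.9% and 23.2%. The SP/KLF motif GGGGCGG was in 23 windows (29.5%), near the 28.7% of all genes and below the 43.6% of the CpG-weighted genes. Among cytosolic ribosomal protein genes the shares were 25% for ETS, 6.52% for YY1, 1.09% for NRF1 and 21.7% for SP/KLF. A match is a string of letters and does not show that a factor was bound.

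Other motifs were as frequent as elsewhere or rare. The CCAAT box was in 28 windows (35.9%, against 38.9% of all genes and 38.7% of the CpG-weighted genes). The E-box CACGTG was in 5 (6.41%, against 7.81% and 10.5%) and the cAMP response element TGACGTCA in 2 (2.56%, against 2.45% and 3.40%). The BANP motif TCTCGCGAG was in 2 (2.56%, against 0.906% and 1.36%). The TATA box TATAAA was in 5 (6.41%), below the 12.7% of all genes and near the 7.45% of the CpG-weighted genes. None of the 78 windows held the ZNF143 motif ACTACAATT, the ERR motif TCAAGGTCA or the MEF2 motif CTAAAAATA, which were in 0.501%, 0.478% and 0.473% of all genes. The motifs were matched exactly, so weaker forms were not counted. CACGTG and TGACGTCA read the same on both strands and were counted as 1 match, and overlaps between motifs were not removed.

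**Figure D4:**
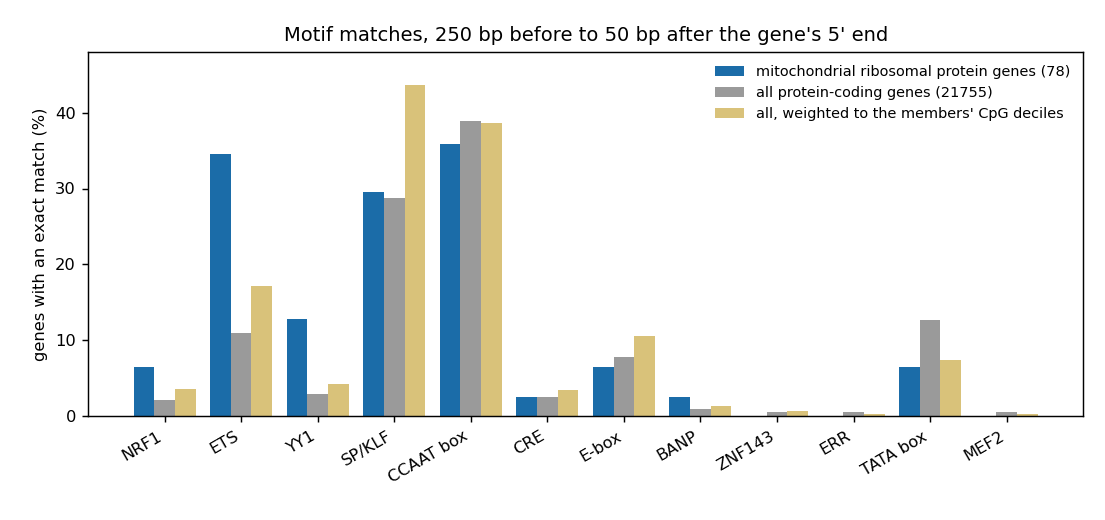
Share of genes in percent (y axis, from 0) with an exact match of each motif (x axis) from 250 bp before to 50 bp after the 5′ end, for the 78 genes, for all 21755 protein-coding genes and for all genes weighted to the CpG deciles of the 78. ETS (34.6%), YY1 (12.8%) and NRF1 (6.41%) stand above both other bars, and SP/KLF (29.5%) stands below the CpG-weighted bar (43.6%).

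The ETS motif lay mostly near the 5′ end of the gene, as did the SP/KLF motif. The 31 ETS matches in 27 genes began at positions from −225 to 37, with a median of −13, counted from 0 at the first base of the gene record, and 28 began between −100 and 50. For SP/KLF, 29 of 34 matches began in that range. The ETS matches used both strands, 16 on the strand of the gene and 15 on the other. Inside promoter peaks rather than the fixed window, 23 genes held the ETS motif in replicate 1 (29.5%) and 24 in replicate 2 (30.8%). Of all genes with a promoter peak, 13.0% and 13.2% did. The share of the family was thus lower inside peaks than in the fixed window (34.6%). That of genes with a promoter peak was lower inside peaks too (15.5% in the window). Genes with it numbered 14 Mrpl and 13 Mrps, including Mrps22, Mrps10 and Mrps18a, whose sequences are printed above. Mrpl43, Mrpl52, Mrpl58 and Mrps34 had 2 matches each. Genes with the ETS motif had median peak values of 93 and 87, and those without it 95 and 91, so its presence did not go with a taller peak.

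The NRF1 motif was in Mrpl9, Mrpl10, Mrpl17, Mrpl22 and Mrpl32, and in no Mrps gene. At Mrpl9, Mrpl10, Mrpl22 and Mrpl32 it lay inside the peak of both libraries, and at Mrpl17 inside that of replicate 1. Their peak values ranged widely, from Mrpl10 (71 and 59) to Mrpl17 (107 and 103) and Mrpl32 (105 and 104). At Mrpl9 the letters form a palindrome, so 1 site gave a match on each strand, starting at −10 and −9. At least 3 of the NRF1, ETS, YY1 and SP/KLF motifs were found at Mrpl17 (NRF1, ETS and SP/KLF) and Mrps18b (ETS, YY1 and SP/KLF). None of these 4 was found at 30 genes, Mrps14 and Mrpl11 among them.

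The 10 sites of the YY1 motif are set under each other because most of them shared a further feature. Each line gives 10 bases to either side, read on the strand of the motif in build mm10.
Mrpl32, chr13:14613262-14613289, plus strand: tttccgggtaAAGATGGCagagcgcggt
Mrpl36, chr13:73328432-73328459, minus strand: ggtcaccggcAAGATGGCggcggtgctg
Mrpl37, chr4:107066823-107066850, minus strand: tgcacgggcaAAGATGGCggcgtccagg
Mrpl42, chr10:95501905-95501932, minus strand: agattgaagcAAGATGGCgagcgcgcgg
Mrps10, chr17:47368894-47368921, plus strand: tcagggcaccAAGATGGCggcgcgcgca
Mrps11, chr7:78783014-78783041, minus strand: ggaagacagaAAGATGGCggcgcccgta
Mrps12, chr7:28742003-28742030, plus strand: tttccactccAAGATGGCtgcgtccatg
Mrps18a, chr17:46111005-46111032, plus strand: ggtgcgttccAAGATGGCggccctcagg
Mrps18b, chr17:35916349-35916376, minus strand: ggtgtgcgtcAAGATGGCtgcccccttg
Mrps27, chr13:99344790-99344817, plus strand: ggtgcgctccAAGATGGCggctcccatg

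In Mrpl37, Mrpl42, Mrps10, Mrps18a, Mrps18b and Mrps27 the motif lay on the strand of the gene, starting 14 to 29 bases downstream of the 5′ end. In Mrpl32, Mrpl36, Mrps11 and Mrps12 it lay upstream on the opposite strand, on the side of the partner gene. Only 4 of the 10 printed sites, at Mrpl42, Mrps10, Mrps11 and Mrps18a, lay inside the gene's highest promoter peak in both libraries. Searched inside the peaks in place of the window, 8 and 7 genes held the motif (10.3% and 8.97%). Among all genes with a promoter peak the shares were 2.31% and 2.28%. The ATG inside the motif was the annotated start codon of the gene itself at Mrps10, Mrps18a, Mrps18b and Mrps27, and that of the partner at Mrpl32 (Psma2), Mrpl36 (Ndufs6), Mrps11 (Mrpl46) and Mrps12 (Sars2). That makes 8 of 10, against 193 of 638 protein-coding genes with the motif in this window (30.3%), a comparison made after the sites had been seen. At these 8 the letters from ATG onward are coding sequence and the AAG before them is not, and what the match does was not tested.

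Beyond the promoter, distal peaks were counted within 50 kb of any TSS of the gene, with a centre over 1 kb from every annotated TSS. The family had a mean of 7.37 per gene in replicate 1 and 6.28 in replicate 2, 6.83 ± 0.771 (SD, n = 2). All protein-coding genes had 7.61 and 6.56, and 8.98 and 7.71 when weighted to the family's CpG content. The family mean was below that of all genes in both libraries, and further below the CpG-weighted mean. The direction against all genes depended on the distances chosen, with more distal peaks than all genes at 13.5 against 13.1 within 100 kb. These windows held a median of 3 and up to 12 other protein-coding genes, so a distal peak near a member need not act on it.

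The count varied widely within the family. Windows differed in width, from 100 to 161 kb, because start sites of a gene can lie far apart. Mrps6, with a window of 148 kb, had the most by the mean of both libraries, 19 and 17, followed by Mrpl45 (20 and 15), Mrps23 (21 and 11), Mrpl23 (17 and 15), Mrpl58 (17 and 12), and Mrpl2 and Mrpl4 (14 and 14, and 15 and 13). Per 100 kb of window Mrpl45 came first with a mean of 17.5, followed by Mrps23 with 16 and Mrpl23 with 15.5, and Mrps6 had 12.2. Mrpl27 had none in either library, and Mrpl3 had 1 in each. Replicate 1 had more at 44 genes, replicate 2 at 15, and 19 had equal numbers. The median difference, replicate 2 minus replicate 1, was −1 for the family and also −1 for all protein-coding genes. Counting each peak 1 time where windows overlap, the windows held 569 distal peaks of replicate 1, of which 393 (69.1%) overlapped, by 1 bp or more, a peak of replicate 2. They held 484 of replicate 2, of which 391 (80.8%) overlapped one of replicate 1.

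**Figure D5:**
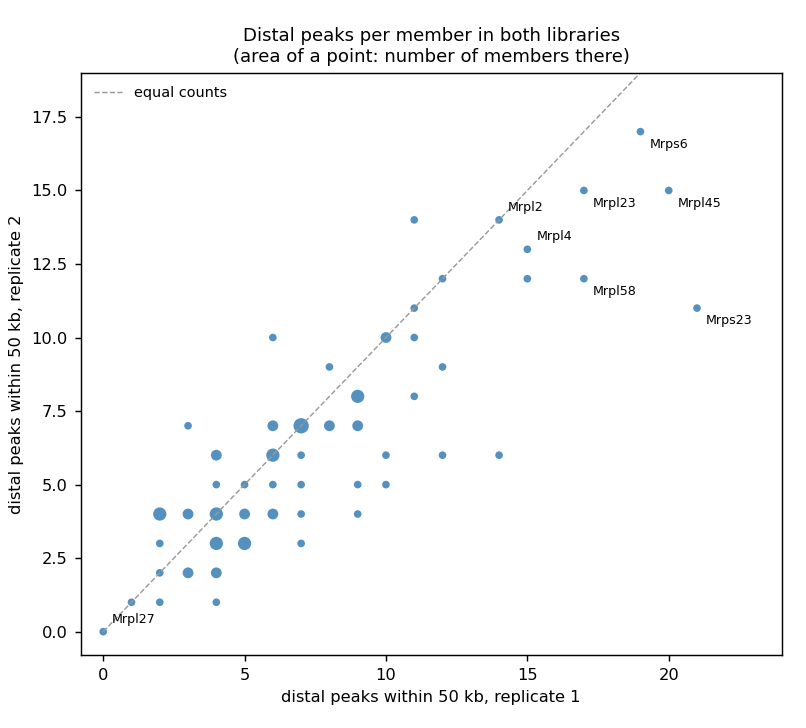
Distal peaks within 50 kb of each gene in replicate 1 (x axis, count) and replicate 2 (y axis, count), with the area of a point proportional to the number of genes there and a dashed line at equal counts. Mrps6 (19 and 17), Mrpl45 (20 and 15) and Mrps23 (21 and 11) lie farthest out, and Mrpl27 lies at 0. More genes lie below the line (44) than above it (15), and the median difference between libraries was the same for all protein-coding genes.

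The highest distal peak near a gene of the family was usually lower than its promoter peak, with medians of 63 and 62. It exceeded the promoter peak in both libraries at 7 genes, a count that was not made for all protein-coding genes. These 7 were Mrps27, Mrpl33, Mrpl58, Mrpl45, Mrpl4, Mrpl10 and Mrpl23. The tallest, 123 in replicate 1 and 111 in replicate 2, lay inside an intron of Mrps27 at chr13:99353276-99353425 in replicate 1, 7806 bp from the nearest annotated TSS, and the promoter peak of Mrps27 had 91 and 103. Next came a peak of 105 and 113 inside Ppp1r10 near Mrps18b, 1221 bp from the nearest TSS, and an intergenic peak of 108 and 101 in the window of Mrpl24, 7156 bp from the nearest TSS. In the window of Mrpl58 an intergenic peak of 90 and 97 stood above the promoter peak of 75 and 68. The peaks near Mrps27 and Mrpl24 are printed on the plus strand of mm10, with the CCAAT box (ATTGG on this strand) and the SP/KLF motif in capitals.
Mrps27, chr13:99353276-99353425, plus strand: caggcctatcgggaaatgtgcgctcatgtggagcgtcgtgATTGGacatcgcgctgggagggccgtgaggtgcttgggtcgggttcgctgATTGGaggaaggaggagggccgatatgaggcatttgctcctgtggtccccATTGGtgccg
Mrpl24, chr3:87960956-87961105, plus strand: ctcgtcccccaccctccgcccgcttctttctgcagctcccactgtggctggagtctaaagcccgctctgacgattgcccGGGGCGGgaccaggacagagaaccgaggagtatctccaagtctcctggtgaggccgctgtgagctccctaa

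The intronic peak of Mrps27 holds 3 CCAAT boxes, all in the same orientation, and its G+C content was 61.3%. The intergenic peak near Mrpl24 holds 1 SP/KLF match and had 63.3% G+C. Neither holds the ETS, NRF1 or YY1 motif.

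Among other listed genes of mitochondrial translation, Trmt61b, an rRNA modification factor by its list, was not found in the annotation and was left out. The remaining genes had promoter peaks in both libraries at 59 of 59, against 64.2% of all protein-coding genes. These were 5 of 5 other mitochondrial ribosomal proteins (medians 85 and 86), 15 of 15 translation factors (90 and 87), 22 of 22 ribosome assembly and rRNA modification factors (91.5 and 87.5), and 17 of 17 mitochondrial aminoacyl-tRNA synthetases (103 and 99). A separate list of mitochondrial transcription and its nuclear regulators had 13 of 14 (110 and 97), the exception being Mterf1a with no promoter peak in either library. Ribosomal proteins outside the naming rule ranged from Aurkaip1 (110 and 94) to Gadd45gip1 (51 and 39), whose values were near those of Mrpl3. Among the factors, Tufm, which brings aminoacyl-tRNA to the mitochondrial ribosome, had 131 and 120, level with the tallest of the Mrpl and Mrps genes.

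Genes for the factors named by the motifs were open too. Gabpa, the DNA-binding subunit of GABP, had 132 and 112 and shares its promoter with Atp5j, Gabpb1 had 73 and 87, Yy1 had 120 in both libraries and Nrf1 had 111 and 98. Of the 59 other genes of mitochondrial translation above, 16 held the ETS motif (27.1%), and 20 shared a promoter with a protein-coding gene (33.9%). In the family itself those counts were 27 and 33 of 78 (34.6% and 42.3%).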

How the data were processed

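Peaks and hotspots were called by the authors separately for each library from filtered alignments to mm10, per the text deposited with each library. Not given in the sources used here were the aligner, the caller, the thresholds and the depth. The deposited peak files give 1 signal value per peak, of unstated normalization, and the deposited hotspot files a −log10 q-value, from 1.30 to 6 and then 100. Chromosome lengths matched GRCm38.p6, whose primary sequence is that of mm10, and genes came from GENCODE vM21. Counting, CpG weighting (10 bins) and motif matching were done in Python 3.11.15 with numpy 2.4.6 and pandas 2.3.3, and window assignment was tested on simulated data. Promoter peaks have their centre within 500 bp of any TSS, distal peaks over 1 kb from every TSS and within 50 kb of the gene. Hotspots are the widest overlapping the window. The alternatives changed windows, start sites, peak strength and libraries.

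With 1 group no test between conditions was possible. Members, gene lists and motifs were chosen with earlier results of these data known. Named were members with a missing peak, with extreme values, widths, library differences or distal counts, with a peak over 1 kb from the 5′ end, with a partner in the lists or with the NRF1 motif or 3 motifs, and a fixed set with known roles, 48 in all. Members and partner genes outside this rule were chosen after their values were seen.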

Additional observations from a re-analysis of the deposited data

How the results depend on the processing

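A total of 41 alternatives were computed for 8 results, and 31 counted as unmoved. That means within 1.5 times for counts of genes and within 1 SD between libraries for other values. Some of the 31 could not have moved. Leaving out either library always stays within 1 SD for the median peak value, hotspot width and mean distal number. A count that already held every gene could not change with a wider window or 1 library left out. The mean number of distal peaks per gene, 6.83, became 8.47 with peaks over 500 bp from every TSS (all genes 8.30), 5 with peaks over 2500 bp away (5.53), 3.38 within 25 kb (3.92), 13.5 within 100 kb (13.1) and 3.67 with the stronger 50% of peaks (3.70). The share of all genes with a promoter peak, weighted to the family's CpG, was 88.5% and became 73.4% with G+C deciles, 85.9% with 250 bp and 90.1% with 1000 bp, and 89.6% to 90.4% when either library was left out. Windows and deciles define these counts. Depth is unknown, so a missing weak peak cannot be told from low coverage. No paired analysis was possible because the series has 1 group.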
